A study of Mus musculus with 6 samples.

Results

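The genes described here are those of MHC class II presentation: H2-Aa, H2-Ab1, H2-Eb1, H2-DMa, H2-DMb1, Cd74 and Ciita. They were chosen by name, and all 7 were found among the 13839 genes of the deposited table. Their RNA was measured in MLL-ENL-ERtm cells, a mouse line named for a fusion of MLL with ENL, with acute monocytic leukemia as its labelled tumour. Of the 6 libraries, 3 came from cells with a retroviral hairpin RNA against Tet1 (shTet1, made as a reported combination named a+b) and 3 from cells with a scrambled, non-specific hairpin (shNS). Both groups had been transduced with a pGFP-V-RS retrovirus, selected in puromycin and adapted to SILAC medium, so neither group is an untreated line. All libraries are from 1 cell line, and the labels do not say whether replicates were separate cultures. The comparison asks which transcripts differ in level when Tet1, a dioxygenase that oxidises methylated cytosine in DNA, is reduced.

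MHC class II molecules are heterodimers of an alpha and a beta chain that show peptides from endosomes to CD4+ T cells. The invariant chain, encoded by Cd74, holds newly made class II molecules until proteases cut it down, and the H2-DM heterodimer then exchanges its last fragment for an antigenic peptide. Ciita encodes the transactivator that is recruited to the promoters of these genes by RFX, CREB and NF-Y, which bind the X and Y boxes there. In myeloid cells class II is best known from dendritic cells and from macrophages exposed to interferon-gamma.

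Reads recovered from the table came to between 15873632 and 18592139 per library. Levels are given in FPKM, which divides reads by gene length and by the size of the library, and always in the order of the replicate numbers 1, 2 and 3. Tet1 was at 0.489, 0.392 and 0.446 FPKM in the shNS libraries and at 0.0982, 0.155 and 0.139 FPKM in the shTet1 libraries. All shTet1 libraries were therefore below all shNS libraries for the targeted gene, whose level is under the filter of the main test. In limma on log2(FPKM + 1), 19.4% of 11646 tested genes were called higher and 33.7% lower in shTet1 at a Benjamini-Hochberg adjusted p under 0.05. Over all tested genes the median log2 change, −0.13, moved to −0.01 with median-of-ratios scaling, which raised the share called higher to 24.9% and lowered the share called lower to 23.6%.

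The promoters of 3 of these genes, all called higher in shTet1, are shown first. They share promoter elements that the choice of genes did not use. A link between these elements and the changes was not tested. RefSeq windows (GRCm38.p6) reaching from 250 bases before to 50 bases after the annotated start were read for H2-Aa, H2-Eb1, H2-DMb1 and H2-DMa. Those of H2-Ab1, Cd74 and Ciita were not used here. Cd74 was also called higher in shTet1, and whether its promoter holds these elements is not reported here. On the strand of the gene, the windows of H2-Aa, H2-Eb1 and H2-DMb1 held GNAAC, the core of an X box. The Y box core ATTGG followed after 27 or 28 bases, within the 27 to 29 that the search pattern allowed. Capitals mark these cores, and each sequence runs 5′ to 3′ on the strand of the gene.
H2-Aa, chr17:34287774-34288073, minus strand: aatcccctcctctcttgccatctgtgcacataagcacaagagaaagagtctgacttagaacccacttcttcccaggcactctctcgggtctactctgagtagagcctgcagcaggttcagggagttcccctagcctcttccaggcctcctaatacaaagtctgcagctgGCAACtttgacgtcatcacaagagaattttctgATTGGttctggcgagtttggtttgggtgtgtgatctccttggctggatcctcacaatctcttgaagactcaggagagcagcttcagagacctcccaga
H2-Eb1, chr17:34305617-34305916, plus strand: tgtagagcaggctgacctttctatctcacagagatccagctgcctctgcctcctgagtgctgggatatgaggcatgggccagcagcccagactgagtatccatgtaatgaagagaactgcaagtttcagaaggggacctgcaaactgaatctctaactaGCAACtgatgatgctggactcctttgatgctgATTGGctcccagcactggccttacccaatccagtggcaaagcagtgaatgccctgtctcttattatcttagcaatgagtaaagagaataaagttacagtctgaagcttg
H2-DMb1, chr17:34152941-34153240, plus strand: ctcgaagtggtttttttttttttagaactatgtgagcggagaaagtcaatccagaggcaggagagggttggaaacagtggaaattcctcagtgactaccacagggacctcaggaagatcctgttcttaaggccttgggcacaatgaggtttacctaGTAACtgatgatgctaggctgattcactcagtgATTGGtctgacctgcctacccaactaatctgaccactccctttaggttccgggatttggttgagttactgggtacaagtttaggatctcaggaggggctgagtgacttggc

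The Y box core began 48 bases before the start of H2-Aa, 59 before that of H2-Eb1 and 61 before that of H2-DMb1. The X box core lay 28, 27 and 28 bases further upstream, counted between the cores. The same arrangement is visible in H2-Oa, the alpha chain of a class II-like inhibitor of H2-DM, while H2-DMb2, the second DM beta gene, has the Y box at the same spacing behind a stretch that does not match GNAAC. The stretches from the X box to the Y box of these neighbours are given for comparison.
H2-Oa: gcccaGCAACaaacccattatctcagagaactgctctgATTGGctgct
H2-DMb2: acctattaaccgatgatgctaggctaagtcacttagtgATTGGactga

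The pattern was written after reading these windows. It occurred on either strand in 0.533% of 32851 RefSeq promoter windows, whereas ATTGG alone occurred in 37.4%. Neither of the 2 windows of H2-DMa held the pattern, and starts of H2-DMa outside these windows were not read. The 3 windows printed in full contained 3, 0 and 3 CpG dinucleotides, and the H2-DMa windows 29 and 0. The window with 29 (34122582 to 34122881) overlaps the RefSeq span of Brd2, which ends at 34122814. Its count therefore cannot be assigned to H2-DMa alone. Of 74 tested genes with the pattern in a promoter window, 24.3% were called higher and 37.8% lower in shTet1, against 19.2% and 34% of the 9154 tested genes that have a window. Without the class II genes whose windows were read, the shares were 21.4% and 40% of 70 genes. A match is a description of letters and does not show a bound site.

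Of the 7 class II genes, 4 were called higher in the knockdown. Of 6 members tested, 4 rose (Cd74, H2-Aa, H2-DMb1 and H2-Eb1) and 0 fell in limma, where 19.4% of all tested genes were called higher. The count was 2 (Cd74 and H2-Aa) on leaving out any of shNS replicates 1 and 3 and shTet1 replicates 2 and 3. Ciita lay under the filter of 1 FPKM in 3 libraries and was not tested with them. The median change of the 6 tested members was 0.40 on the log2 scale, against −0.13 for all tested genes. The ratio of group means lay between 1.13 (H2-DMa) and 1.68 (Cd74) for these 6 genes. The 4 genes called higher were also the 4 whose shTet1 libraries all stood above all shNS libraries, a separation shown in this direction by 22.6% of tested genes and in the opposite one by 39.1%. By the authors' deposited table, 5 members had an adjusted p under 0.05, all of them higher (H2-Ab1 in addition to these 4), where 23.7% of its genes were higher and 22.1% lower by that rule.

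**Figure D1:**
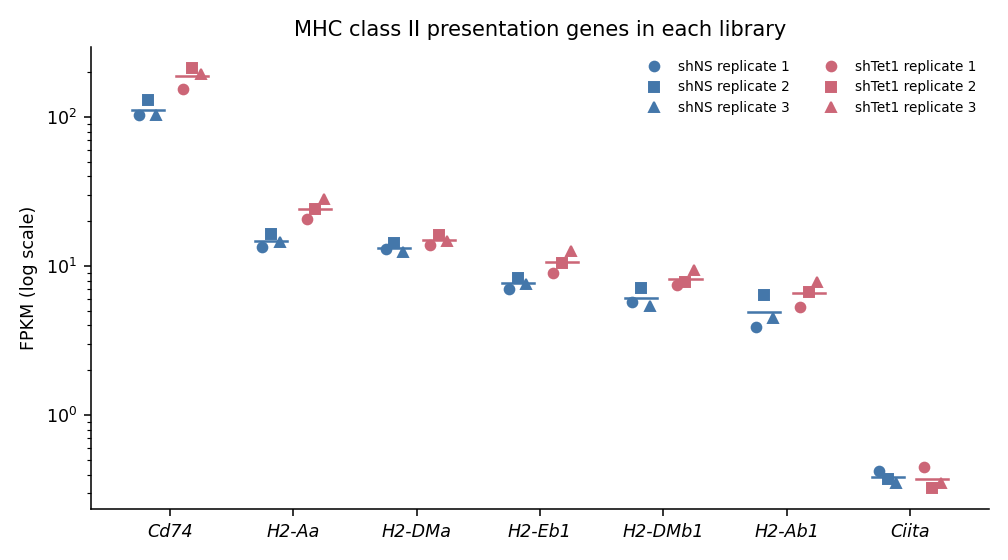
FPKM (log axis) of the 7 class II genes in each library, with shNS in blue, shTet1 in red, a symbol for each replicate number and a line at each group mean. Cd74 is the most abundant in every library, Ciita is under 0.5 FPKM throughout, and the groups are separate for Cd74, H2-Aa, H2-Eb1 and H2-DMb1.

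Cd74 (gene ID 16149, chromosome 18, 60803849 to 60812652, GRCm38) encodes the invariant chain, which chaperones class II chains to the endosome. The shNS libraries held 103, 129.5 and 103 FPKM and the shTet1 libraries 155, 212 and 194 FPKM, on 2453 to 5348 reads. Every shTet1 library exceeded every shNS library. The group means were 112 ± 15.4 FPKM in shNS and 187 ± 29.2 FPKM in shTet1 (SD, n = 3). The log2 change was 0.74 (SE 0.14, limma adjusted p = 0.00336), and it was past the threshold in all 14 alternatives, with values from 0.64 to 0.87.

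H2-Aa (gene ID 14960, chromosome 17, 34282744 to 34287823) encodes the alpha chain of the I-A molecule. Its level was 13.4, 16.5 and 14.5 FPKM in shNS and 20.6, 24.2 and 28.2 FPKM in shTet1, on 262 to 479 reads. The groups did not overlap, and shTet1 replicate 3 was the highest library. Group means were 14.8 ± 1.57 FPKM in shNS and 24.3 ± 3.81 FPKM in shTet1 (SD, n = 3), and the log2 change was 0.68 (SE 0.13, limma adjusted p = 0.00330), which also stayed past the threshold in all 14 alternatives (0.57 to 0.80).

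H2-Ab1 (gene ID 14961, chromosome 17, 34263227 to 34269418) encodes the beta chain that pairs with H2-Aa. It stood at 3.92, 6.36 and 4.47 FPKM in shNS and at 5.33, 6.68 and 7.81 FPKM in shTet1, on 87 to 148 reads. The groups overlapped, because shNS replicate 2 was above shTet1 replicate 1. The log2 change of 0.37 (SE 0.18, 95% interval −0.04 to 0.78) was not past the threshold (limma adjusted p = 0.111). With the replicate number as a block it was (limma adjusted p = 0.0389, in a fit that called 23.1% of all tested genes higher and 41% lower), as it was without shNS replicate 2 (0.54, limma adjusted p = 0.0318) or without shTet1 replicate 1 (0.50, limma adjusted p = 0.0348).

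H2-Eb1 (gene ID 14969, chromosome 17, 34305867 to 34316674) encodes the beta chain of the I-E molecule. Levels were 6.99, 8.38 and 7.59 FPKM in shNS and 8.99, 10.5 and 12.7 FPKM in shTet1, on 214 to 336 reads. All shTet1 libraries lay above all shNS libraries, with the narrowest gap between shNS replicate 2 and shTet1 replicate 1. The log2 change was 0.43 (SE 0.13, limma adjusted p = 0.0240). Leaving out shNS replicate 1 or 3, or shTet1 replicate 2 or 3, ended the call (limma adjusted p 0.0728, 0.0722, 0.0652 and 0.0565).

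H2-DMa (gene ID 14998, chromosome 17, 34119693 to 34139101) and H2-DMb1 (gene ID 14999, chromosome 17, 34153191 to 34160229) encode the alpha chain and a beta chain of the peptide exchange factor H2-DM. H2-DMa stood at 13.0, 14.2 and 12.4 FPKM in shNS and 13.8, 16.2 and 14.7 FPKM in shTet1. These groups overlapped, and the log2 change was 0.16 (SE 0.09, 95% interval −0.05 to 0.38, limma adjusted p = 0.176), or 0.29 (limma adjusted p = 0.0491) after median-of-ratios scaling. H2-DMb1 stood at 5.78, 7.11 and 5.44 FPKM in shNS and 7.5, 7.78 and 9.42 FPKM in shTet1, on 118 to 192 reads. Its groups did not overlap, and its log2 change was 0.38 (SE 0.12, limma adjusted p = 0.0331). That call ended in the limma-voom fit on recovered reads (adjusted p 0.0503, with 18.6% of its genes called higher and 31.6% lower). It also ended on leaving out shNS replicate 1 or 3, or shTet1 replicate 2 or 3 (limma adjusted p 0.0884, 0.123, 0.0643 and 0.0909).

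Reads of H2-DMb1 cannot all be assigned to it. Of its 51-base windows, the length of a read, 22.3% also occur in transcripts of H2-DMb2, and the share for H2-Aa, the next of the members, was 0.462%. The other 5 members shared 0% of their windows with another gene. The RefSeq spans of H2-DMa and Brd2 overlap, as do those of Ciita and Dexi and of Cd74 and Mir5107, and how the authors counted reads in such stretches is not given in the sources used here.

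Ciita (gene ID 12265, chromosome 16, 10480014 to 10531064), the transactivator of the other members, was close to the floor of detection. It stood at 0.425, 0.371 and 0.351 FPKM in shNS and 0.446, 0.323 and 0.352 FPKM in shTet1, on 34 to 49 reads. The groups overlapped fully, and the exact permutation test (two-sided, 6 values) gave p = 0.9, where the smallest p that 3 against 3 allows is 0.1. In limma-voom on recovered reads its log2 change was −0.04 with a 95% interval from −0.56 to 0.48 (adjusted p = 0.9). In the same fit the changes of H2-Aa (0.71) and Cd74 (0.74) lie outside this interval. Their own 95% intervals (0.38 to 1.04 and 0.43 to 1.05) overlap it. The changes of H2-Eb1 (0.47), H2-Ab1 (0.44), H2-DMb1 (0.43) and H2-DMa (0.17) lie inside it. A change of Ciita within its interval was not detectable at this depth.

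**Figure D2:**
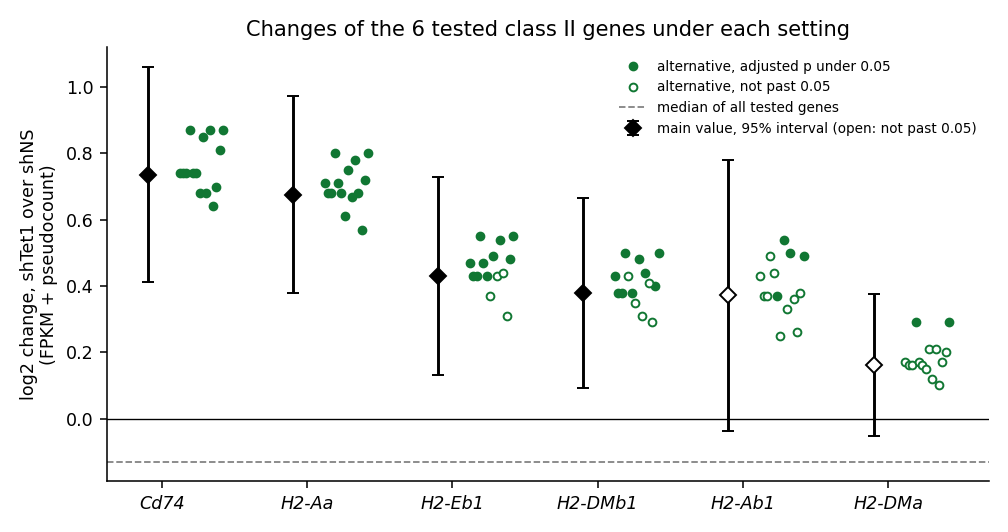
Log2 change (shTet1 over shNS) of the 6 tested class II genes, with the main value and its 95% interval in black and the 14 alternative settings in green, filled where the adjusted p was under 0.05. Cd74 and H2-Aa are filled under every alternative, and all values lie above the median of all tested genes at −0.13 (dashed).

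The order of levels was the same in all 6 libraries. In shNS, Cd74 (112 FPKM) was followed by H2-Aa (14.8), H2-DMa (13.2), H2-Eb1 (7.65), H2-DMb1 (6.11), H2-Ab1 (4.92) and Ciita (0.382). The ranges over libraries overlapped between H2-Aa and H2-DMa, between H2-Eb1 and H2-DMb1 and between H2-DMb1 and H2-Ab1, so that the spread over libraries was as wide as these gaps, although the order held within every library. In shTet1, H2-Aa (24.3 FPKM) and H2-DMa (14.9) no longer overlapped, while the other neighbours that overlapped in shNS still did. The FPKM of H2-DMa relative to H2-Aa fell outside the shNS range in every shTet1 library, from 0.970, 0.862 and 0.856 to 0.671, 0.670 and 0.520. That is a difference of −0.54 in the log2 ratio (exact permutation p = 0.1, the smallest possible, adjusted to 0.2 over 4 ratios).

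Ratios were also formed within each library for chains that pair and for Cd74. The ratio of H2-Ab1 to H2-Aa was 0.293, 0.386 and 0.308 in shNS and 0.259, 0.277 and 0.277 in shTet1, without overlap (log2 difference −0.27, exact permutation p = 0.1, adjusted 0.2), and the difference was −0.15 without shNS replicate 2. That of H2-DMb1 to H2-DMa was 0.445, 0.501 and 0.438 against 0.543, 0.481 and 0.642, with overlap (0.26, exact permutation p = 0.2, adjusted 0.267), and the difference was 0.15 without shTet1 replicate 3. The ratio of Cd74 to H2-Aa overlapped between groups, at 7.70, 7.87 and 7.07 against 7.53, 8.78 and 6.89 (0.03, exact permutation p = 1.0). None of the 4 ratios can pass a threshold of 0.05 in this design.

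Among the shTet1 libraries, the class II genes were ordered differently from genes of monocytes and macrophages. Replicate 3 was the highest shTet1 library for H2-Aa, H2-Ab1, H2-Eb1 and H2-DMb1, or 4 of the 6 tested members, and the lowest for 0 of them. Replicate 3 was the highest shTet1 library for 41.8% of all tested genes and the lowest for 28.7%. Of all genes called higher in shTet1, 18.7% had replicate 3 as their highest shTet1 library and 51.9% as their lowest. For the list of 15 monocyte and macrophage markers, replicate 3 was the lowest shTet1 library in 13 and the highest in 0. Replicate 1 was the lowest shTet1 library for all 6 tested members (38.6% of all tested genes), and replicate 2 the highest shNS library for all 6 (30.1%), as it was for 12 of the 15 monocyte and macrophage markers. The counts for the class II members and for the monocyte and macrophage markers were the same after median-of-ratios scaling. The shares of all tested genes and of genes called higher were taken without that scaling only. Genes of a shared pathway are not independent observations, and the order was noticed in these data.

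**Figure D3:**
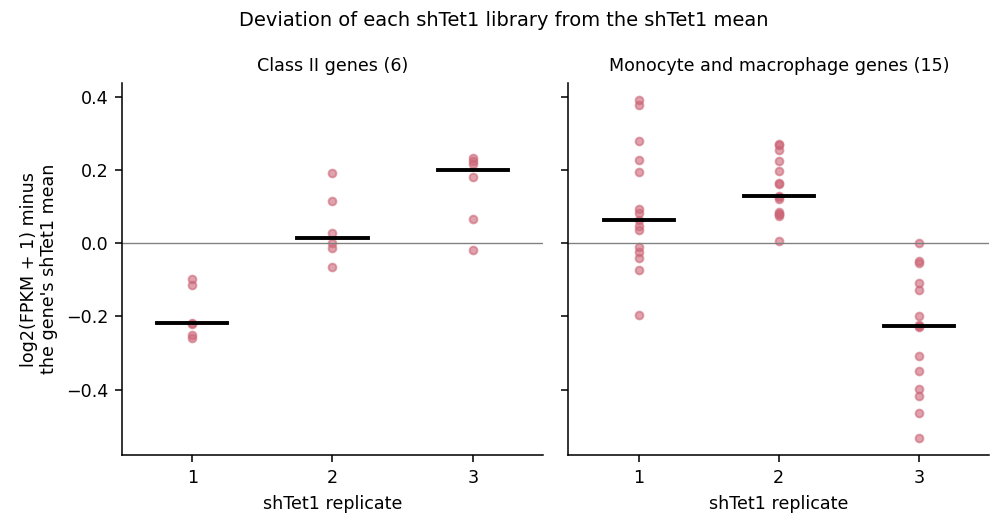
Deviation of log2(FPKM + 1) in each shTet1 library from the gene's shTet1 mean, with a point per gene and a bar at the median, for the 6 tested class II genes and for 15 monocyte and macrophage genes. In replicate 3 the median is 0.20 for the class II genes and −0.23 for the monocyte and macrophage genes.

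The marker lists describe the cells in which these changes were seen. All 15 monocyte and macrophage markers rose, with summed levels of 3525 to 4006 FPKM in shNS and 11362 to 17252 FPKM in shTet1. Most of that sum was Lyz2, the gene of lysozyme, and the other 14 summed to 735 to 787 FPKM in shNS and 1906 to 2573 FPKM in shTet1. They included Mrc1, the mannose receptor (log2 change 1.90), Emr1, which encodes F4/80 (1.60), the perforin-like Mpeg1 (2.05) and the scavenger receptor Msr1 (1.56), each at a limma adjusted p under 0.05. Of the 13 dendritic cell genes, 3 were not analysed here. Among the 7 tested, 1 rose and 2 fell, near the 19.4% called higher and 33.7% called lower of all tested genes. Sirpa, a receptor shared with macrophages, rose (1.42). The growth factor receptor gene Flt3 (−1.41) and the corepressor gene Cbfa2t3 (−1.39) fell. The integrin gene Itgax, the classical dendritic marker CD11c, was at 3.74 ± 0.227 and 4.27 ± 0.699 FPKM (SD, n = 3; limma adjusted p = 0.322), and Clec9a, Ccr7 and Siglech were under 0.4 FPKM in every library. Of the 12 B cell genes, 6 were not analysed here, among them Ms4a1 and Pax5, and the others summed to between 3.62 and 4.60 FPKM in every library. That sum held changes in both directions. Cd22 rose (1.10), from 0.505 to 2.23 FPKM in the group means, and Cd79b fell (−0.59), from 2.08 to 1.04 FPKM. Cd79a, Ebf1 and Cr2 were near the floor and not tested in the main fit. With Cd79b they made 4 genes whose shTet1 libraries all lay below all shNS libraries, against 1 above (Cd22). Of all tested genes, 39.1% were separated downward and 22.6% upward. Of the 8 T and NK cell genes, 5 were not analysed here, and Lck (−1.24) and Cd247 (−0.37, limma adjusted p = 0.0204) fell. The call of Cd247 ended after median-of-ratios scaling (limma adjusted p = 0.0519), without any of the shNS libraries (0.0503 to 0.0762), without shTet1 replicate 2 (0.0736) and without both libraries numbered 1 (0.0594). The part of any other cell type in the class II levels was not tested. In these bulk libraries a change in the share of class II positive cells and a change in RNA per cell cannot be told apart.

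Genes that neighbour the class II members on chromosome 17 were called in both directions. Within 50 kb of an H2 member the table held 15 genes, members included, of which 14 were tested. Among the 9 tested genes that are not members, 2 rose and 2 fell, where 19.4% of all tested genes rose and 33.7% fell. The risers were H2-DMb2, from 10.02 ± 1.52 to 14.9 ± 3.47 FPKM (log2 change 0.51, limma adjusted p = 0.0408), and H2-Ea-ps, from 22.2 ± 2.25 to 33.0 ± 3.44 FPKM (0.55, limma adjusted p = 0.00393). The groups of H2-DMb2 overlapped, and its call ended in the limma-voom fit (adjusted p 0.0531) and on leaving out shNS replicate 1 or 3, or shTet1 replicate 2 or 3 (limma adjusted p 0.0829, 0.138, 0.141 and 0.117). The genes that fell lie between the H2-DM and the H2-A genes and serve class I presentation: Psmb8, an immunoproteasome subunit (128 ± 1.33 to 100.1 ± 0.503 FPKM, −0.35), and Tap2, a chain of the peptide transporter (54.5 ± 2.86 to 36.3 ± 3.27 FPKM, −0.57). Their direct neighbours Psmb9 (0.02, turning negative when some libraries are left out) and Tap1 (−0.05, or 0.08 with median-of-ratios scaling) were not called, nor were Brd2 and H2-Oa. BC051537 was not called either (−0.40, limma adjusted p = 0.0504), but fell with the replicate block (limma adjusted p = 0.0136). H2-Ob, the beta chain partner of H2-Oa, was at 0.0888 to 0.222 FPKM and was not tested.

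**Figure D4:**
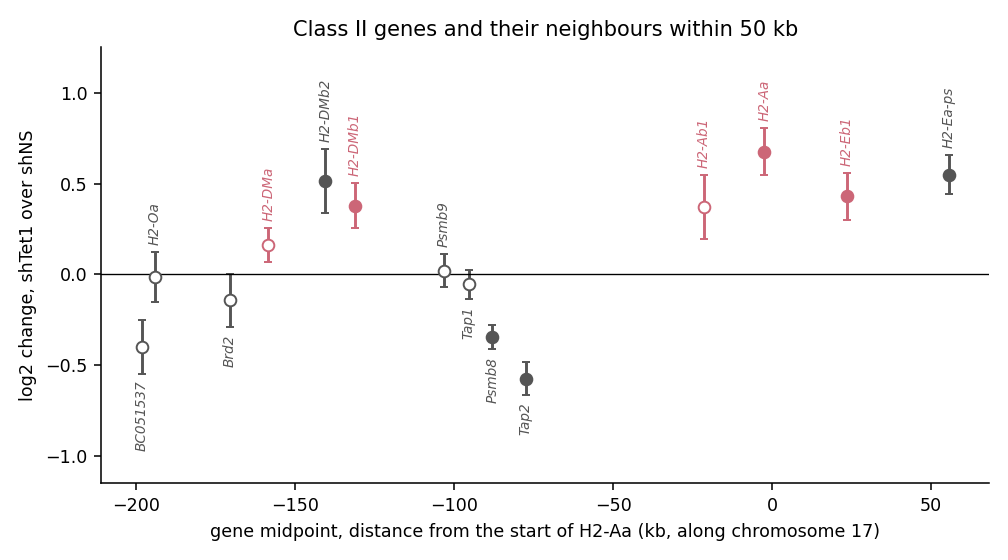
Log2 change (shTet1 over shNS, bars: standard error) of the 14 tested genes within 50 kb of an H2 class II member against the distance of the gene midpoint from the start of H2-Aa in kb, with members in red and filled points at an adjusted p under 0.05. Class II genes with alpha or beta chains of I-A, I-E and DM lie above 0, while Psmb8 and Tap2 between them lie below.

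Genes that act before and after the class II genes in the pathway were read from the same fit. The counts of each list stand against 19.4% of all tested genes called higher, 33.7% called lower and a median of −0.13. Of 7 genes for factors that bind class II promoters, 0 rose and 2 fell, a share called lower that is near that of all genes, with a median log2 change of −0.22. These were the NF-Y subunit genes Nfya (32.7 ± 0.378 to 22.2 ± 0.716 FPKM, −0.54, limma adjusted p = 0.000668) and Nfyb (13.4 ± 0.780 to 8.55 ± 0.976 FPKM, −0.60, limma adjusted p = 0.00196). The RFX genes Rfx5, Rfxap and Rfxank, Creb1 and Nfyc were not called.

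Of 12 tested genes of interferon-gamma signalling and Ciita control, 7 rose and 2 fell (median 0.35). Both chains of the interferon-gamma receptor rose. Ifngr1 stood at 53.6, 47.3 and 47.9 FPKM in shNS and 169, 148 and 108 FPKM in shTet1 (1.47, limma adjusted p = 0.000273), without overlap. Ifngr2 went from 21.9 ± 2.16 to 45.2 ± 3.33 FPKM (1.01). The transcription factor gene Irf8 rose from 15.1 ± 1.05 to 36.6 ± 2.51 FPKM (1.22), and the Polycomb methyltransferase gene Ezh2 fell from 44.8 ± 1.69 to 25.1 ± 1.22 FPKM (−0.81), each at a limma adjusted p under 0.05. Irf4 and Prdm1, genes of further transcription factors, were under the filter of the main test. In shNS and shTet1, Irf4 was at 0.464 ± 0.192 and 1.43 ± 0.563 FPKM, and Prdm1 at 0.338 ± 0.0932 and 1.51 ± 0.655 FPKM. Both were higher in limma-voom on recovered reads (Irf4 1.64, adjusted p = 0.00615, and Prdm1 2.09, adjusted p = 0.00309).

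Of 10 genes for endosomal processing of the invariant chain and of antigen, 7 rose and 0 fell, with a median of 1.03. Ctss, the protease that makes the late cut in the invariant chain, stood at 122, 119.8 and 98.7 FPKM in shNS and 591, 564.5 and 396 FPKM in shTet1 (2.16, limma adjusted p = 7.14e-05). Ctsl (2.04) and Ctsb (1.63), further lysosomal cysteine proteases, rose as well. Lgmn, an asparaginyl endopeptidase that starts invariant chain cleavage, went from 0.319 ± 0.0789 FPKM on 8 to 12 reads per library to 4.75 ± 0.856 FPKM on 131 to 166 reads (2.11 on the log2(FPKM + 1) scale, which understates a change from so low a level). The thiol reductase gene Ifi30 (−0.30, limma adjusted p = 0.0820) and the adaptor genes Ap1g1 and Ap2m1 were not called.

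Marchf1, which encodes a membrane ubiquitin ligase that drives class II molecules to the lysosome, rose from 7.59 ± 0.200 to 23.4 ± 4.94 FPKM (log2 change 1.49, limma adjusted p = 0.000177), and its relative Marchf8 was not called (0.04). Of 6 tested costimulation ligands, 3 rose and 1 fell. Cd86, a ligand of CD28, went from 1.18 ± 0.593 to 8.21 ± 2.53 FPKM (2.08) and Cd274, the inhibitory ligand PD-L1, from 22.4 ± 2.38 to 44.3 ± 3.45 FPKM (0.95), while Cd80 was not called (0.10). Icosl was the other riser (0.31, limma adjusted p = 0.0345), a call that ended when any of the shNS libraries, shTet1 replicate 2 or shTet1 replicate 3 was left out, and Cd48 fell (−1.21). Of 10 class I genes, 5 rose and 2 fell. The class I heavy chain genes H2-K1 (0.87) and H2-D1 (1.05) and the light chain gene B2m (1.12) rose, next to 0.68 for H2-Aa on the same scale.

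**Figure D5:**
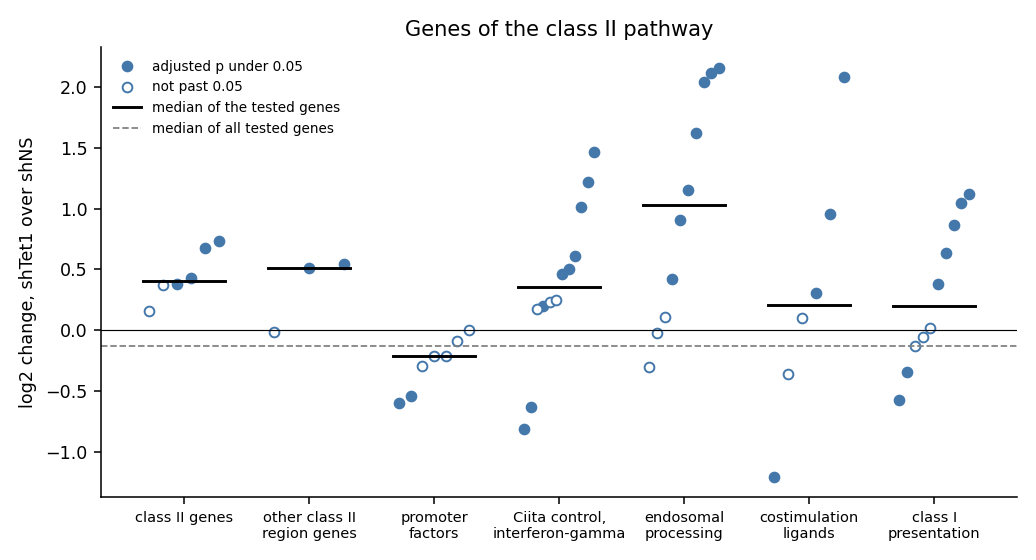
Log2 change (shTet1 over shNS) of each tested gene in the class II members and 6 other lists, filled where the adjusted p was under 0.05, with a bar at each list's median. The endosomal processing list has the highest median of those drawn (1.03), the promoter factors the lowest (−0.22), and the dashed line is the median of all tested genes (−0.13).

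Across the 6 libraries the tested members resembled each other, with Pearson correlations of log2(FPKM + 1) from 0.75 (H2-Eb1 with H2-DMa) to 0.98 (H2-Aa with H2-Eb1). Those of Ciita with the others ranged from −0.53 to −0.23. After subtracting group means, the correlations among the tested members ranged from 0.43 (H2-Eb1 with H2-DMa) to 0.99 (H2-Aa with H2-Eb1), and those of H2-DMa were 0.94 with Cd74, 0.51 with H2-Aa and 0.48 with H2-DMb1. Among 8710 other genes with a mean of at least 5 FPKM, the 5 most like Cd74 were Myl12a, Acta1, Gm6194, Tspan17 and Cyth4 (0.993 to 0.997), and those most like H2-Aa included Ywhab, Ppfibp1, Il1rn and Ap5z1 (0.995 to 0.999). These genes share the libraries and the difference between groups with the members, and such values over 6 points describe these libraries only.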

How the data were processed

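Polyadenylated RNA was made into directional libraries and read as single ends of 51 bases, per the labels and design text. GRCm38 is the build that the submitters' processing notes name. Which aligner, counter and test were used is not given in the sources used here. Deposited was 1 table with values per library that were taken as FPKM from their behaviour, since no header names the unit. Its mean signal per group, fold change (a ratio), log2 fold change, p-value and adjusted p-value come from the authors, per the file headers. In the authors' deposited table H2-Ab1 had a log2 fold change of 0.56 (adjusted p 0.0492) and H2-DMa 0.31 (adjusted p 0.0693). Whole reads were recovered by dividing each FPKM by the value of 1 read (100.0% whole within 0.01 read). Intervals and p-values cover the spread of these libraries, which may be technical.

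Changes were fitted with limma 3.58.1 (R 4.3.3, intensity trend) on log2(FPKM + 1), on genes reaching 1 FPKM in 3 or more libraries, with group as the term, two-sided, Benjamini-Hochberg adjusted over all genes tested. This scale understates changes of low genes. Alternatives were a pseudocount of 0.1, no filter or 5 FPKM, median-of-ratios scaling, limma-voom on recovered reads (at least 10 reads in 3 libraries), the replicate number as a block, libraries left out, and, added after seeing the data, scaling and block together. Same-numbered libraries deviated together from their group means (correlations over genes 0.61, 0.36 and 0.21). Differently numbered ones reached 0.34 (shNS 2 with shTet1 3) and 0.14 (shNS 3 with shTet1 2), so only number 1 stood apart. The numbers from the titles were taken as pairs, which these values do not establish for numbers 2 and 3. Replicates differed by more than counting noise (chi-square over its degrees of freedom 4.64 to 38.09). Exact permutation tests used scipy 1.17.1.

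The members and lists were chosen with earlier results of these data known. Genes named are the members; from each list up to 4 called genes with the smallest p, or the 2 most expressed where none was called; genes within 50 kb of an H2 member; and the 5 most like Cd74 and H2-Aa, of which 1 is not reported here. Genes listed as not called, Itgax, Clec9a, Ccr7, Siglech, Lyz2, Irf4, Prdm1 and the B cell genes were named beyond that rule, after their values were seen. Gene IDs were matched to RefSeq GRCm38.p6 for 13798 of 13839 genes.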

Additional observations from a re-analysis of the deposited data

How the results depend on the processing

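The count of class II genes called higher was 4, and it was 5 with median-of-ratios scaling, 5 with the replicate block, 3 with limma-voom and 6 with scaling and block together, where all 6 tested members passed. That last setting was chosen after seeing the data. Of all tested genes, 19.4% were called higher in the main fit, 24.9% with scaling, 23.1% with the block and 18.6% with limma-voom. The share with scaling and block together is not reported here, so the count of 6 cannot be set against it. The class II count ranged from 2 to 5 when 1 library was left out: 2 (Cd74 and H2-Aa) without shNS replicate 1 or 3 or shTet1 replicate 2 or 3, and 5 without either of the other libraries. It was 4 with the other alternatives. No member was called lower under any of them, and no tested member changed direction. Among the members the replicate block alone changed the call of H2-Ab1 and of no other. Of the 50 tested genes of the pathway lists, 25 were called higher and 7 lower in the main fit, against 19.4% and 33.7% of all tested genes. Over the alternatives, which tested 45 to 54 of the list genes, 20 to 29 were called higher and 6 to 10 lower. Part of that range goes with the set tested and with the share of all genes called, whose lower share was 23.6% with scaling and 41% with the block. The difference in the log2 ratio of Cd74 to H2-Aa, 0.03, ranged from −0.07 to 0.11 when libraries were left out, and was −0.07 without shTet1 replicate 2 and −0.02 without shNS replicate 3. Left-out libraries gave −0.35 to −0.15 for H2-Ab1 to H2-Aa, 0.15 to 0.36 for H2-DMb1 to H2-DMa and −0.60 to −0.42 for H2-DMa to H2-Aa. The block, as the mean of 3 paired differences, left the ratio of H2-DMa to H2-Aa at −0.54 (exact sign-flip p = 0.25, the smallest possible). Genes that were not called and turned direction were H2-Oa (0.11 with scaling, also under the block, −0.10 to 0.10 when 1 library was left out, among them 0.09 without shTet1 replicate 3, and 0.03 when both libraries numbered 1 were), Brd2 (−0.26 to 0.03 when 1 library was left out and 0.01 when both libraries numbered 1 were), Tap1 (0.08 with scaling and with scaling and block) and Psmb9 (−0.03 without shTet1 replicate 1, −0.02 without shTet1 replicate 2, −0.00 without shNS replicate 3, and −0.01 when both libraries numbered 1 were left out); the cause was not tested. Depth limits Ciita (34 to 49 reads), H2-Ob (4 to 11) and, in shNS, Lgmn (8 to 12).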

Other observations

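H2-Ea-ps (gene ID 100504404, chromosome 17, 34341952 to 34344645), annotated by RefSeq as a transcribed pseudogene of the I-E alpha chain, was more abundant than the other class II chains of the region. The shNS libraries held 22.2, 24.5 and 19.96 FPKM and the shTet1 libraries 29.8, 32.5 and 36.6 FPKM, by replicate number, on 264 to 455 reads. All shTet1 libraries were above all shNS libraries, and replicate 3 was the highest, as for H2-Aa and H2-Eb1. As background, mice of the H2-b haplotype, such as C57BL/6, carry a deletion in the promoter region of this gene and make no I-E alpha chain. The labels do not give the strain of the cells, and which allele the reads came from was not tested.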
